A study of Mus musculus with 6 samples.

Results

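The genes described here form the TET pathway of active DNA demethylation. They are Tet1, Tet2, Tet3, Tdg, Idh1 and Idh2, 6 of the 34245 genes in the expression table, and they were chosen by name. TET enzymes are dioxygenases that oxidize methylated cytosine to hydroxymethyl-, formyl- and carboxylcytosine, using iron and 2-oxoglutarate. TDG, a thymine DNA glycosylase, removes the formyl and carboxyl forms, and base excision repair then restores an unmodified cytosine. IDH1 in the cytosol and IDH2 in mitochondria make 2-oxoglutarate from isocitrate. TET2 and IDH2 are recurrently mutated in human peripheral T-cell lymphoma, where mutant IDH2 makes a metabolite that inhibits TET enzymes.

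RNA-seq was available for 3 peripheral T-cell lymphomas (PTCL) from lymph nodes of terminally sick Dnmt3b+/- mice of the FVB strain, which carried 1 inactivated germline allele of the DNA methyltransferase Dnmt3b. The age of the mice was not given in the sources used here. No control library and no second genotype of RNA-seq was analysed here, so that no group could be compared with another and every value is a description of these 3 tumors. Levels are given as FPKM, the fragments on a gene per kilobase of exon and scaled to the depth of the library, which allows genes to be compared per length. The depths recovered from the values were 30726570, 18969988 and 20770928 reads for tumors 1, 2 and 3. Intervals are exact Poisson intervals (95%) of the recovered reads and cover counting error only. Whether single reads or pairs were counted was not given in the sources used here, and intervals would be too narrow if both mates of a pair were counted. Of the genes with 1 to 10 reads, 43.4%, 43.3% and 41.4% in tumors 1, 2 and 3 had an even number, and genes with 1 read (955 in tumor 1) outnumbered those with 2 (618).

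T-cell markers were checked first. All 11 genes of the T-cell list were above 0.2 FPKM in every tumor, and their summed level was 1675, 1214 and 1650 FPKM in tumors 1, 2 and 3. The most abundant by mean, the CD8 chain gene Cd8b1, had 435, 166 and 443 FPKM in tumors 1, 2 and 3. In tumor 2, Trac and Lck exceeded it, at 213 and 208 FPKM. The list had no common order, since tumor 2 held the highest value for 5 of its 11 genes, tumor 1 for 4 and tumor 3 for 2. T-cell transcripts were therefore present in each library. Normal T cells of a lymph node carry them too, so they do not check the lymphoma label. Dnmt3b itself had 0.975, 1.55 and 1.25 FPKM in tumors 1, 2 and 3, and with no wild-type library these values do not check the genotype.

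Tet3 was the most abundant of the 6 genes. Tet3 (ENSMUSG00000034832, mm10 chromosome 6, 83362373 to 83459084, minus strand) measured 11.5, 6.15 and 4.66 FPKM in tumors 1, 2 and 3, and its mean was 7.43 ± 3.59 FPKM (SD, n = 3). The recovered reads were 5894, 1949 and 1616, and the counting intervals of the 3 tumors, 11.2 to 11.8, 5.88 to 6.43 and 4.44 to 4.89 FPKM, did not overlap. Tumor 1 thus stood above both other tumors by more than counting error, and 86.8% of all genes had a lower mean than Tet3.

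Tet2 differed from the other 5 genes in its highest tumor. Tet2 (ENSMUSG00000040943, chromosome 3, 133463679 to 133545139, minus strand) measured 2.31, 2.62 and 1.41 FPKM in tumors 1, 2 and 3, and its mean was 2.11 ± 0.629 FPKM (SD, n = 3). From 1199 and 837 reads, the intervals of tumor 1 (2.18 to 2.45 FPKM) and tumor 2 (2.44 to 2.80 FPKM) overlapped, while tumor 3, with 493 reads and 1.29 to 1.54 FPKM, was below both. Tet2 was therefore highest in tumor 2 by its value, but tumors 1 and 2 were not separated by their counting intervals.

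Tet1, the family member best known from embryonic stem cells, was the least abundant of the 6 genes. Tet1 (ENSMUSG00000047146, chromosome 10, 62804570 to 62908996, minus strand) measured 0.166, 0.0875 and 0.0543 FPKM in tumors 1, 2 and 3, and its mean was 0.103 ± 0.0575 FPKM (SD, n = 3). It was detected with 77, 25 and 17 reads. Whole reads in all 3 tumors required an exon length of 15065 bases in place of the annotated 15457. The interval of tumor 1, 0.131 to 0.208 FPKM, lay just above that of tumor 2, 0.0566 to 0.129 FPKM, and tumors 2 and 3 overlapped.

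Within the Tet family, Tet3 held the largest share. Of the summed Tet FPKM it made up 82.3%, 69.5% and 76.1% in tumors 1, 2 and 3 (76.0% ± 6.39, SD, n = 3). Tet2 made up 16.6%, 29.5% and 23.0% (23.0% ± 6.49, SD, n = 3), and Tet1 1.19%, 0.988% and 0.888%. A share within a tumor does not depend on the scaling of the library, and this order of Tet3, Tet2 and Tet1 was found in each of the 3 tumors. Tet3 was 4.97 times Tet2 in tumor 1, 2.35 times in tumor 2 and 3.31 times in tumor 3. The summed Tet level was 14.0, 8.86 and 6.12 FPKM in tumors 1, 2 and 3, a mean of 9.65 ± 3.98 FPKM (SD, n = 3).

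**Figure D1:**
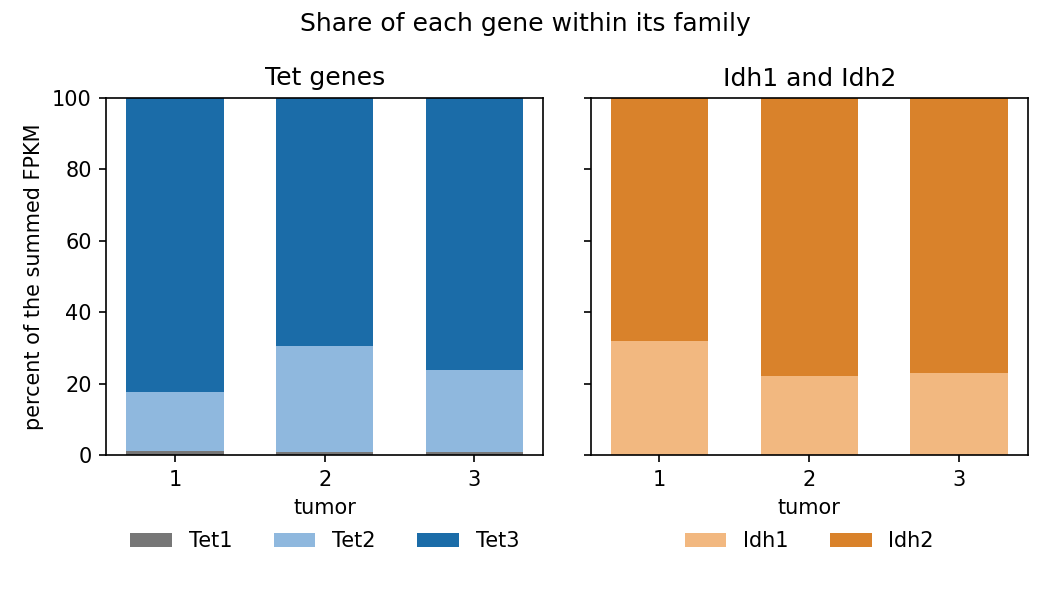
Percent of the summed FPKM held by Tet1, Tet2 and Tet3 (left) and by Idh1 and Idh2 (right) in each tumor (x axis). Tet3 was the largest Tet share in each tumor, from 69.5% to 82.3%, and Idh2 the larger Idh share, from 67.9% to 77.8%.

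Tdg encodes the glycosylase that acts after the TET enzymes. Tdg (ENSMUSG00000034674, chromosome 10, 82629828 to 82650799, plus strand) measured 5.23, 2.19 and 1.81 FPKM in tumors 1, 2 and 3, and its mean was 3.07 ± 1.87 FPKM (SD, n = 3). It was covered by 863, 223 and 202 reads, and the intervals of tumor 2 (1.91 to 2.49 FPKM) and tumor 3 (1.57 to 2.08 FPKM) overlapped, while tumor 1 was above both. The level of Tdg against other genes is uncertain, because near-identical copies lie elsewhere in the genome. In GRCm38, stretches of its longest coding transcript (3502 bases) recurred at 4 other places with at least 95% identity, which together covered 86.4% of the transcript. They were on chromosome 7 from 76243185 to 76246119 (99.3% identity over 2935 aligned bases), on chromosome 10 from 42052554 to 42055356 (99.3% over 2805), on chromosome 15 from 82516256 to 82519281 (98.6% over 3026, annotated as the pseudogene Tdg-ps) and on chromosome 19 from 33672278 to 33674036 in 2 adjoining pieces. Of the 150-base windows of the transcript, 55.1% (1849 of 3353) occurred in identical form elsewhere in the genome, and a read from such a window alone has no single place of origin. For the longest coding transcripts of Tet1, Tet2, Tet3, Idh1 and Idh2, no copy of at least 150 bases with that identity and no such window was found. Reads of low mapping quality had been left out by the authors, and how many Tdg reads this removed in each tumor was not tested.

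Idh2 exceeded Idh1 in each tumor. Idh2 (ENSMUSG00000030541, chromosome 7, 80094846 to 80115392, minus strand) measured 7.81, 4.75 and 4.20 FPKM in tumors 1, 2 and 3, and its mean was 5.59 ± 1.94 FPKM (SD, n = 3; 621, 233 and 226 reads). Idh1 (ENSMUSG00000025950, chromosome 1, 65158616 to 65186500, minus strand) measured 3.69, 1.35 and 1.27 FPKM in tumors 1, 2 and 3, and its mean was 2.10 ± 1.37 FPKM (SD, n = 3; 314, 71 and 73 reads). For both genes tumor 1 was above the counting intervals of the others, and tumors 2 and 3 overlapped, with 4.16 to 5.40 and 3.67 to 4.79 FPKM for Idh2 and 1.05 to 1.70 and 0.994 to 1.59 FPKM for Idh1. Idh2 was 2.12 times Idh1 in tumor 1, 3.51 times in tumor 2 and 3.31 times in tumor 3, and Idh1 held 32.1%, 22.2% and 23.2% of their sum. Idh3a, Idh3b and Idh3g encode subunits of the NAD-dependent isocitrate dehydrogenase of the citric acid cycle. Their summed FPKM was 4.75, 10.8 and 12.2 times that of Idh1 and Idh2 in tumors 1, 2 and 3. This sum counts 3 subunits of 1 enzyme and is not a level of that enzyme. Idh3a alone had 14.1, 7.86 and 9.96 FPKM, and all 3 subunit genes are given below.

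**Figure D2:**
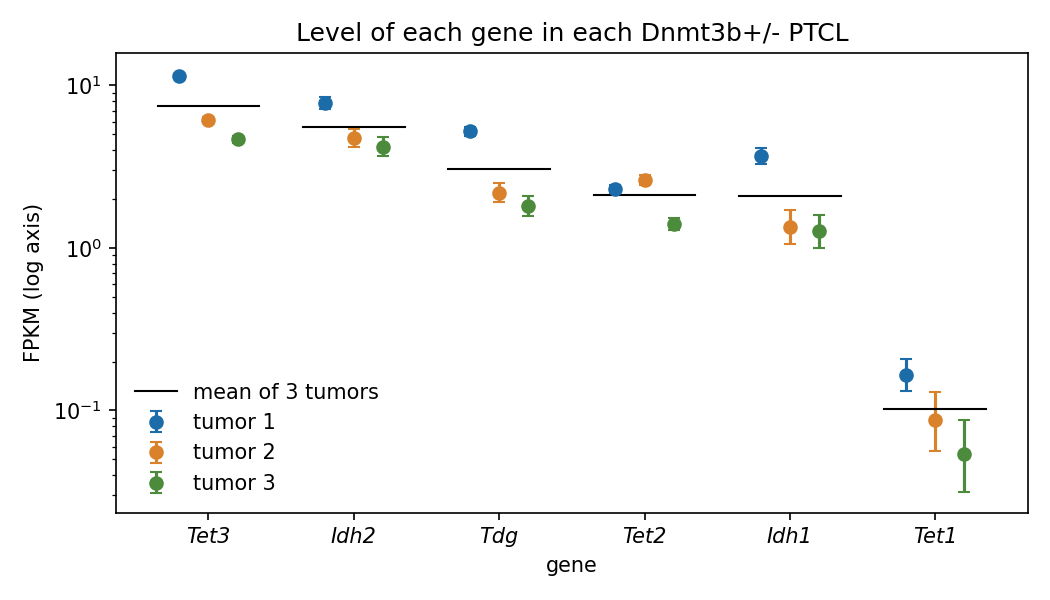
FPKM (y axis, log axis) of the 6 genes (x axis, ordered by mean) in each of the 3 Dnmt3b+/- PTCL, with exact Poisson intervals (95%) as bars and the mean of 3 tumors as a black line. Tumor 1 is highest for each gene but Tet2, and Tet1 lies below the other 5 genes in each tumor.

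By mean FPKM the order was Tet3, Idh2, Tdg, Tet2, Idh1 and Tet1. Without tumor 1 the means of Tdg and Idh1 were lower, at 2.00 and 1.31 FPKM, and Tet2, at 2.01 FPKM, stood beside Tdg. Only Tet1 was set apart, since the lowest Idh1 value, 1.27 FPKM, was above the highest Tet1 value, 0.166 FPKM. Every other pair of neighbours overlapped in range over the 3 tumors. Within each tumor, however, Tet3 exceeded Idh2 and Idh2 exceeded Tdg in 3 of 3 tumors. Tdg exceeded Tet2 in 2 of 3 tumors, with tumor 2 the exception, and Tet2 exceeded Idh1 in 2 of 3, with tumor 1 the exception. Not all of these orders were separated by counting intervals, which overlapped for Tet3 and Idh2 in tumor 3, for Tdg and Tet2 in tumor 2 and for Tet2 and Idh1 in tumor 3. Tet2 and Idh1, with means of 2.11 and 2.10 FPKM, cannot be ordered by these data.

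The spread between the tumors was measured as the highest FPKM divided by the lowest. It was 3.06 for Tet1, 2.91 for Idh1, 2.89 for Tdg, 2.47 for Tet3, 1.86 for Tet2 and 1.86 for Idh2. Of the 5 genes with a mean of at least 1 FPKM (all but Tet1), 3 reached a ratio of 2, as did 34.4% of all genes with such a mean (3856 of 11197). The median ratio was 2.47 for these 5 genes and 1.68 for all 11197. Idh1 had a larger ratio than 82.6% of those genes and Idh2 than 59.6%, so that these 5 genes lay above the middle of the distribution. The ratios of at least 2 rest on tumor 1. Without tumor 1 none of these 5 genes reached a ratio of 2, against 15.8% of all genes with a mean of at least 1 FPKM in the other 2 tumors (1719 of 10847), whereas without tumor 2 it was 3 of 5 against 17.6% and without tumor 3 it was 2 of 5 against 26.2%. With FPKM rescaled to sum to 1000000, Tet2 and Idh2 also passed 2, at 2.01 and 2.20. On that scale 4416 of the 11197 genes reached 2, against 3856 as deposited.

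**Figure D3:**
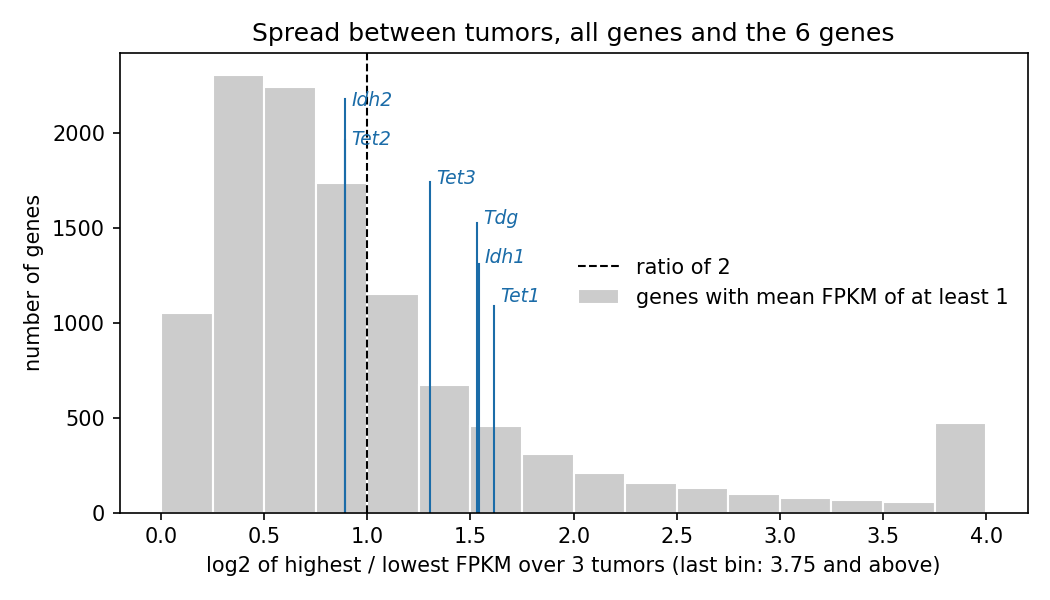
Number of genes (y axis) by log2 of the highest divided by the lowest FPKM over the 3 tumors (x axis) for genes with a mean of at least 1 FPKM, with lines at the 6 genes and a dashed line at a ratio of 2 (the last bar holds all higher ratios as well). Tet3, Tdg, Idh1 and Tet1 lie to the right of the dashed line, Tet2 and Idh2 to the left of it.

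The tumors in which the genes were high and low were largely shared. Among the 5 genes with a mean of at least 1 FPKM, 4 were highest in tumor 1, against 50.6% of all genes with such a mean, and 5 were lowest in tumor 3, against 37.4%. Tet1 was also highest in tumor 1 and lowest in tumor 3. These tumors were chosen for the count after the values were seen. A shift was also present over all genes with such a mean, whose median log2 difference between tumors 1 and 3 was 0.24, with 0.01 after division by median-of-ratios factors and 0.48 with FPKM rescaled to sum to 1000000. With those factors 4 of the 5 genes were highest in tumor 1, against 36.9% of all genes with such a mean, and 5 of 5 lowest in tumor 3, against 26.9%. With the rescaled values these counts were the same, against 60.5% and 50.5%. On the log2 scale against their own mean, tumor 1 stood at 0.81 for Idh1, 0.77 for Tdg, 0.70 for Tet1, 0.63 for Tet3 and 0.48 for Idh2, but at 0.13 for Tet2.

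Markers of other cell types and of cycling cells moved with the same tumors. The 6 myeloid markers summed to 268, 91.0 and 33.7 FPKM in tumors 1, 2 and 3. Their most abundant gene by mean, Lyz2, had 215, 33.1 and 20.3 FPKM and made up most of the sum in tumors 1 and 3. Of the other 5, Cd68 was highest in tumor 2, with 19.6, 51.2 and 9.27 FPKM, and exceeded Lyz2 there. Itgam was lowest in tumor 2, with 2.58, 0.562 and 0.664 FPKM. The 3 erythroid markers summed to 131, 27.1 and 3.43 FPKM, with Hba-a1 at 92.3, 19.6 and 1.90 FPKM. The 4 markers of cycling cells summed to 96.0, 56.4 and 29.5 FPKM, with Mki67 at 38.7, 30.4 and 12.0 FPKM. The sums of these 3 lists were thus highest in tumor 1 and lowest in tumor 3, like Tet1, Tet3, Tdg, Idh1 and Idh2. Their part in the levels of these genes was not tested, and in bulk tissue fewer cells of a type and less RNA per cell cannot be told apart.

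Other lists had another order. The 5 B-cell markers summed to 56.2, 13.7 and 104 FPKM in tumors 1, 2 and 3 (Cd79a: 23.1, 7.31 and 49.0 FPKM). The lists whose sum was highest in tumor 2, where Tet2 was highest, were those of stroma and endothelium (18.2, 51.1 and 5.33 FPKM), of pancreatic acinar cells (91.9, 459 and 0.685 FPKM) and of NK cells (37.9, 70.5 and 28.7 FPKM). The most abundant stromal and endothelial gene by mean, Pecam1, had 12.2, 10.9 and 4.86 FPKM. In tumor 2, Col1a1 and Col3a1 exceeded it, at 15.5 and 14.3 FPKM. In FPKM as deposited Pecam1 was highest in tumor 1, while the other 5 of that list were highest in tumor 2. Divided by the median-of-ratios factors, 1.10 and 0.980 for tumors 1 and 2, Pecam1 would be highest in tumor 2 as well. The most abundant acinar gene was Ctrb1, at 33.9 FPKM in tumor 1 and 198 FPKM in tumor 2, and tumor 3 held no read of it. The most abundant NK gene, Klrd1, had 37.2, 64.5 and 25.2 FPKM and made up most of its sum, while Ncr1 was highest in tumor 1 (0.380, 0.205 and 0.125 FPKM) and Klrb1c lowest there (0.308, 5.77 and 3.38 FPKM). Of the 10 acinar markers, 6 had no read in tumor 3, Ctrb1 among them. For 2 of these 6 this rests on an exon length that gives whole reads, and with annotated lengths alone the count was 4. Every gene of the other lists had at least 1 read in each tumor. Their part in the Tet2 values was not tested either.

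**Figure D4:**
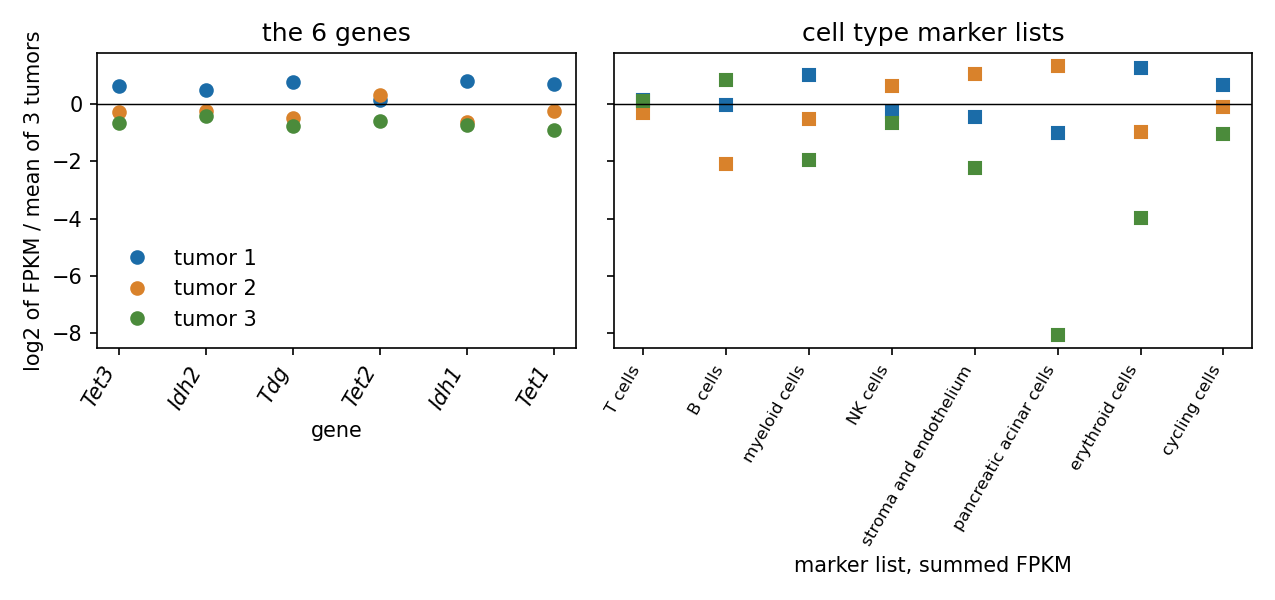
Log2 of FPKM divided by the mean of the 3 tumors (y axis) for the 6 genes (left) and for the summed FPKM of each cell type marker list (right). Tumor 1 is highest and tumor 3 lowest for 5 of the 6 genes and for the myeloid, erythroid and cycling lists.

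The promoters of the 6 genes were taken from RefSeq (GRCm38.p6), 250 bases before to 50 after each start, with 7 promoters matched because Idh1 has 2 starts. All 7 held more CpG than the median promoter, which had 7 CpG among 32851. Tet2 had 57 CpG in 300 bases, more than 99.8% of promoters, followed by Tdg with 26, both Idh1 starts with 23, Tet3 with 22, Idh2 with 20 and Tet1 with 17. CpG are the sites that DNA methyltransferases modify and TET enzymes act on, and their methylation was not analysed here. The GC box GGGCGG, searched on both strands, was in all of these promoters but that of Tdg, against 35.7% of all promoters. The start of Tet1 lies 21672 bases inside the gene bounds given above, the Idh1 starts 7358 and 21 bases and the Idh2 start 42 bases. The promoters of Tet1 and of 1 Idh1 start are thus far from the upstream end of the gene. The 250 bases upstream of the RefSeq start of Tet2, which was highest in tumor 2, are shown beside those of Tet3 and Tdg, which were highest in tumor 1, with each CpG in capitals. These starts lie inside the gene bounds given above, 749 bases from the upstream end for Tet2, 17406 for Tet3 and 10 for Tdg, so that the stretches of Tet2 and Tet3 are not upstream of the whole gene. They lie at chr3:133544391-133544640 (minus strand, 51 CpG), chr6:83441679-83441928 (minus strand, 17 CpG) and chr10:82629588-82629837 (plus strand, 19 CpG).
Tet2: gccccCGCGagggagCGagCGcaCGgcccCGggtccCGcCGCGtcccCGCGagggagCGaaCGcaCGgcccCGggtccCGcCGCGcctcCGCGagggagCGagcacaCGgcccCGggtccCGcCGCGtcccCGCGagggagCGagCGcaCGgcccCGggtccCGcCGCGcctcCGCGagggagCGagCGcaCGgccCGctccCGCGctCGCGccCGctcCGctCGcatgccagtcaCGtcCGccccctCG
Tet3: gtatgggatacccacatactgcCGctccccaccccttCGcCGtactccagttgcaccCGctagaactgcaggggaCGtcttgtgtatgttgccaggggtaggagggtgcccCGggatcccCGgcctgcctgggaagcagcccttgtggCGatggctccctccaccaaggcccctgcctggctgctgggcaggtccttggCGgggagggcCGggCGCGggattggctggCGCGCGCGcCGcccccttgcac
Tdg: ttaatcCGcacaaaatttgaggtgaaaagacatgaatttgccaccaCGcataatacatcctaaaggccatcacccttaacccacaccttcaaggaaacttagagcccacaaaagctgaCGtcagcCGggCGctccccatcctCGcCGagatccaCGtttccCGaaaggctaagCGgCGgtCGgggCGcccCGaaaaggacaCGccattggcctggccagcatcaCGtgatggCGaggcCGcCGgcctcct
The CpG of Tet2 were spread evenly, with 25 in the distal 125 bases and 26 in the 125 next to the start, and a stretch of 43 bases occurred more than once in it. Tet3 had 7 and 10 CpG in the same parts and a longest recurring stretch of 9 bases, and Tdg had 3 and 16, so that the parts differed most in Tdg. A match is a description of these letters and no evidence that a factor binds there.

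Exons of the 6 genes overlapped little with other genes. Tet2 shared 43 exon bases (0.255%) with the antisense Gm42567, which had 0.0832, 0.135 and 0.123 FPKM. Tdg shared 367 exon bases (6.83%) with Glt8d2 on the other strand, which had 0.0395, 0.0457 and 0.0334 FPKM. Whether reads were counted by strand was not given in the sources used here, and both partners were far below Tet2 and Tdg in each tumor.

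Of a list of 66 other genes around the pathway, 58 were above 0.2 FPKM in every tumor, against 36.7% of all genes in the table and 5 of the 6 genes, Tet1 being the exception. The median of mean FPKM over all genes in the table was 0.0976, so this contrast depends on how many low genes the table holds. A mean of at least 1 FPKM was reached by 55 of the 66. Of these 55, 9 (16.4%) had a ratio of at least 2, against 34.4% of all genes with such a mean. Their median ratio was 1.54, against 1.68 for all of those genes.

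The repair genes that follow TDG were all above 0.2 FPKM in every tumor (9 of 9), with means from 3.41 to 69.2 FPKM. None reached a ratio of 2, against 34.4% of all genes with a mean of at least 1 FPKM, and their median ratio was 1.35, against 1.68. The sliding clamp gene Pcna had 88.0, 55.9 and 63.6 FPKM in tumors 1, 2 and 3. Parp1, which binds strand breaks, had 19.5 ± 1.37 FPKM (SD, n = 3) and the smallest ratio of the group at 1.14, and the abasic site nuclease gene Apex1 had the largest at 1.89. Tdg, with a ratio of 2.89, varied more than each of these 9 genes.

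Among other glycosylases and deaminases, 3 of 9 genes with a mean of at least 1 FPKM reached a ratio of 2, a share near the 34.4% of all genes with such a mean. These were Apobec1, Apobec2 and Neil3. The glycosylase gene Neil3 had 4.69, 1.45 and 1.33 FPKM in tumors 1, 2 and 3, and it and Apobec1 were named after their values were seen. Apobec2, a muscle-associated member of the deaminase family, had 4.36, 23.1 and 0.356 FPKM, with the largest ratio of the list at 64.8. Apobec3 had 6.92, 9.61 and 5.05 FPKM, and Neil1 had the smallest ratio at 1.46. Apobec2 was highest in tumor 2, as were the sums of the stromal and acinar lists, whose part was not tested.

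Among partners and regulators of TET enzymes, 1 of 7 genes with a mean of at least 1 FPKM reached a ratio of 2, against 34.4% of all genes with such a mean. That gene was Gadd45g, a stress-induced gene, with 22.8, 2.83 and 5.95 FPKM in tumors 1, 2 and 3. Ogt, which encodes the transferase that binds TET2 and TET3, had 58.6, 72.3 and 55.1 FPKM, and Mgea5, which encodes the enzyme that removes the same sugar, had 29.5, 22.8 and 22.5 FPKM. Hmces had the smallest ratio at 1.06. Ogt was thus far above Tet2 and Tet3 in each tumor and did not share the tumor 1 maximum of Tet3.

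For 2-oxoglutarate supply and use, 3 of 13 genes with a mean of at least 1 FPKM reached a ratio of 2, against 34.4% of all genes with such a mean. Glud1 and Gpt, which were named after their values were seen, were among them. Idh3g had 18.5, 31.1 and 34.1 FPKM in tumors 1, 2 and 3, lowest in tumor 1 where Idh1 and Idh2 were highest. Another subunit gene of the same enzyme, Idh3a, had 14.1, 7.86 and 9.96 FPKM and was highest in tumor 1, as Idh1 and Idh2 were. The remaining subunit gene, Idh3b, had 22.0, 27.1 and 22.9 FPKM and in FPKM as deposited was lowest in tumor 1. Divided by the summed FPKM of the library, 188740 and 223767 for tumors 1 and 3, Idh3b would be lowest in tumor 3. Idh3g would stay lowest in tumor 1. The transaminase gene Gpt2 had the largest ratio at 7.12, at a low level of 0.138, 0.364 and 0.0512 FPKM, and Dlst had the smallest at 1.14.

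Of the genes of metabolites that inhibit these dioxygenases, and of their removal, none of 10 reached a ratio of 2, against 34.4% of all genes with a mean of at least 1 FPKM. Ldha had 134, 132 and 104 FPKM in tumors 1, 2 and 3, and the succinate dehydrogenase subunit gene Sdhd had 48.6, 41.5 and 47.7 FPKM with the smallest ratio at 1.17. Fh1 had the largest ratio at 1.76. In ascorbate and iron uptake, 1 of 3 genes with such a mean reached 2, the transferrin receptor gene Tfrc, with 31.9, 20.8 and 5.04 FPKM. Tfrc is high in erythroid and dividing cells, and its order of tumors was that of the erythroid and cycling lists, whose part was not tested. Slc11a2 had 5.53, 7.89 and 7.83 FPKM, and Slc23a2 had the smallest ratio at 1.39.

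In FPKM as deposited, the DNA methyltransferases that the pathway opposes had another order than most of the 6 genes. Dnmt1, the maintenance methyltransferase, had 31.7, 33.5 and 23.6 FPKM in tumors 1, 2 and 3, and its partner Uhrf1 had 24.9, 26.2 and 17.5 FPKM. Dnmt3a had 2.52, 5.76 and 1.77 FPKM, the largest ratio of the group at 3.25, and Dnmt1 had the smallest at 1.42. These 3 genes were highest in tumor 2 and lowest in tumor 3, as was Tet2, whereas Dnmt3b was highest in tumor 2 and lowest in tumor 1. This order depended on the scale for Dnmt1 and Uhrf1. Divided by the summed FPKM of the library, 188740 and 206902 for tumors 1 and 2, both would be highest in tumor 1. Dnmt3a, Dnmt3b and Tet2 would stay highest in tumor 2. The summed Tet level was 0.441 of Dnmt1 in tumor 1, 0.265 in tumor 2 and 0.260 in tumor 3.

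**Figure D5:**
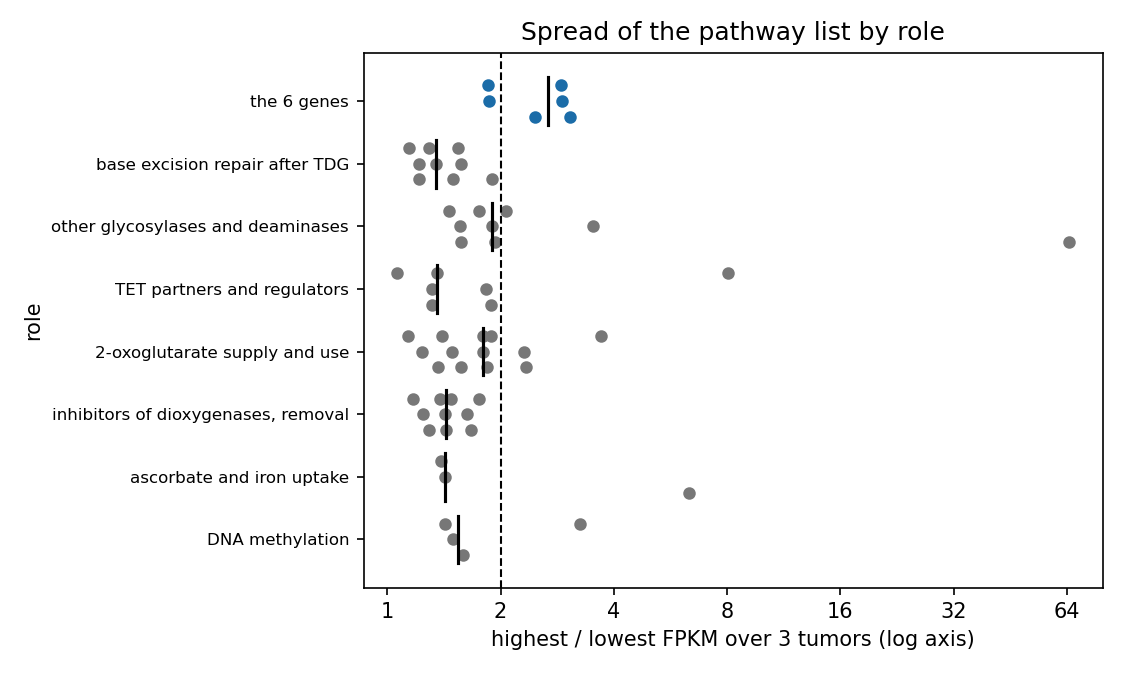
Highest divided by lowest FPKM over the 3 tumors (x axis, log axis) for the 6 genes (blue) and for genes of the pathway list with a mean of at least 1 FPKM by role (grey, y axis), with the median of each row as a black line and a ratio of 2 as a dashed line. Repair genes after TDG lie between 1.14 and 1.89, below 4 of the 6 genes.

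Genes with the pattern nearest to each of the 6 were searched among those with a mean of at least 1 FPKM. Tet1 itself is below that filter. The measure was the largest difference, over the 3 tumors, of log2 FPKM centred on its mean. Nearest to Tet3 were AC153962.1, Dbf4 and Zgrf1, and among the nearest to Tet2 were Gm28192 and Flot1. Nearest to Tet1 were Pgpep1l, Cenpt and Msmo1, and nearest to Tdg were Gm26771, Rell1 and Fsbp. Nearest to Idh1 were Pik3c2a, Traj49 and Gm17606, and nearest to Idh2 were Rrm1, Rcsd1 and Trim3. With 3 tumors many genes come close, and 152 genes lay within 0.1 of Idh2, 80 of Tet2, 48 of Tet3, 38 of Tdg, 37 of Tet1 and 32 of Idh1. These neighbours depended on the scale, because with log2(FPKM + 1) the nearest 3 genes shared 1 gene for Tdg and 0 for each of the other 5.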

How the data were processed

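RNA-seq (paired-end, 150 bases) of 3 Dnmt3b+/- PTCL was used, and the 3 bisulfite sequencing samples of the labels were not analysed here. Trimmed reads had been aligned to mm10 with STAR, filtered for high mapping quality, which leaves out reads with several places, and quantified with SeqMonk by the authors, who deposited FPKM on a linear scale, and versions were not given in the sources used here. Genes with no read carry the value that 0.9 read would give. This gave the depth, and with merged exon lengths of GENCODE M21 (34125 of 34245 genes) it gave whole reads, within 0.01, for 92.1% of values in tumor 1. Symbols turned into dates (26) were restored, and for a repeated symbol the row with the highest mean was read. Ratios were called at 2 and filtered at a mean of 1 FPKM. No test was made. Other thresholds, filters and scalings, and each tumor left out, were tried. Named genes were the 6 members, 3 nearest genes each, per role the 2 most abundant genes and those with the largest and smallest ratio, Dnmt1, Dnmt3a, Dnmt3b, Uhrf1, Idh3a, Idh3b, Cd68, Itgam, Ncr1 and Klrb1c (added later) and the most abundant gene per marker list. Some genes that this rule names are not reported here. Members and lists were chosen with earlier results of these data known. Copies were searched with BLAST+ 2.17.0. The ratio and depth steps were tested on simulated data. Python 3.11.15, pandas 2.3.3, NumPy 2.4.6, SciPy 1.17.1, pysam 0.24.0 and matplotlib 3.10.9 were used.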

Additional observations from a re-analysis of the deposited data

How the results depend on the processing

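No paired analysis was possible because only 1 RNA-seq group was analysed and no result comes from a test. Replicate numbers recur between the titles of RNA-seq and bisulfite libraries, and the titles do not say that equal numbers are the same tumor. With FPKM rescaled to sum to 1000000, which changes the unit, the means were 0.516 for Tet1, 10.4 for Tet2, 37.1 for Tet3, 15.5 for Tdg, 10.6 for Idh1 and 27.7 for Idh2, and the ratios of Tet2 and Idh2 passed 2, at 2.01 and 2.20. With the longest coding transcript as length, an alternative chosen after seeing the data, the means were 0.110 for Tet1, 3.88 for Tet2, 11.4 for Tet3, 4.72 for Tdg, 2.53 for Idh1 and 8.29 for Idh2, in the same order. A fold threshold of 3 left 1 of the 6 genes, Tet1, and 0 of the 5 with a mean of at least 1 FPKM, against 16.4% of all genes with such a mean. The number of all genes with a ratio of at least 2, 3856, became 7028 and 1841 at fold thresholds of 1.5 and 3, 7037 with the rescaled values, 4416 when those were still filtered by FPKM (added after seeing the data), 6395 and 1674 with filters of 0.2 and 5 FPKM, and 7198 with no filter and a pseudocount of 0.1. The number of pathway list genes, 9, became 28 at a threshold of 1.5 and 17 with the rescaled values, or 14 when filtered by FPKM. With log2(FPKM + 1), 0 of the nearest 3 genes were shared for Tet1, Tet2, Tet3, Idh1 and Idh2 and 1 for Tdg. With each tumor left out in turn, the mean ranged from 0.0709 to 0.127 FPKM for Tet1, 1.86 to 2.46 for Tet2, 5.41 to 8.82 for Tet3, 2.00 to 3.71 for Tdg, 1.31 to 2.52 for Idh1 and 4.48 to 6.28 for Idh2, the ratio ranged from 1.61 to 3.06 for Tet1, 1.13 to 1.86 for Tet2, 1.32 to 2.47 for Tet3, 1.21 to 2.89 for Tdg, 1.06 to 2.91 for Idh1 and 1.13 to 1.86 for Idh2, the number of the 6 genes with a ratio of at least 2 from 0 to 4, that of all genes from 1719 to 3000 and that of pathway list genes from 4 to 7. The share of Tet3 in the summed Tet FPKM stayed between 72.8% and 79.2%. Tet1, with 17 to 77 reads per tumor, is the gene whose values depth limits most.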
